A study of Mus musculus with 50 samples.

Results

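Arginase 1 (Arg1), glutamine synthetase (Glul) and glutamate dehydrogenase 1 (Glud1) were followed in the hepatocytes of control and HIRA KO mouse livers. They are 3 of the 1000 gene targets of the imaging panel, grouped as enzymes that handle nitrogen in the liver. No measured value enters the rule that picks them, but they were picked with earlier results of these data known. They were read in 20842 hepatocyte-sized cells out of 52132 segmented cells. A cell counted as hepatocyte-sized when its outline covered at least 15000 square pixels, it held at least 20 gene counts and its area did not exceed 5 times the geometric mean of all cells.

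The livers were imaged in situ with CosMx, which decodes single RNA molecules on a tissue section and assigns them to segmented cells. Sections came from the median lobe, fixed in formalin and embedded in paraffin. Control mice were wild type and received AAV8 Tbg-Cre, a virus that expresses Cre recombinase from the hepatocyte-specific Tbg promoter. HIRA KO mice carried floxed Hira alleles (HIRA fl/fl) and received the same virus, so that both groups had the virus and Cre and only the HIRA KO group had a gene for it to delete, in hepatocytes alone. Injection took place at 6 months of age and collection 12 months later, at 18 months. On a single slide, each group was imaged in 25 fields of view (50 in all), which form 6 tissue areas of 8 or 9 fields each, and the tissue area was the replicate (3 per group). The labels name no mouse and the sex of these animals is not given in the sources used here, so p-values measure the spread between areas. Control areas all lay on one side of the slide, and side and genotype cannot be told apart. Hira is not a target of the panel, so the knockout could not be checked in these cells.

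The liver removes ammonia by routes that are laid out along the lobule, the unit between portal tract and central vein. Hepatocytes around the portal tract and through most of the lobule run the urea cycle, whose last enzyme, Arg1, splits arginine into urea and ornithine. The hepatocytes directly around the central vein express Glul, which captures the remaining ammonia by joining it to glutamate. Glud1, a mitochondrial enzyme, releases ammonia from glutamate or fixes it in the reverse reaction and is expressed through the lobule. In the RefSeq annotation of GRCm38.p6, Glul lies on chromosome 1 from 153899929 to 153909723, Arg1 on chromosome 10 from 24915207 to 24927470 and Glud1 on chromosome 14 from 34310727 to 34345033. The deposited tables carry no genome coordinates.

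The labelled tissue was borne out by the cells. The summed level of 8 hepatocyte markers (Apoa1, Serpina1a, Apoe, Ttr, Gc, Azgp1, Vtn and Apoc1) was 1.404 to 1.85 times as high in hepatocyte-sized cells as in smaller cells over the 6 areas. Kupffer cell markers stood at 0.489 to 0.6253 of their level in smaller cells, stellate markers at 0.564 to 0.741 and endothelial markers at 0.630 to 0.891, so markers of these types were lower but not absent. Neutrophil and erythroid markers were not lower in every area (0.782 to 1.24 and 0.932 to 1.53). Median depth was 131, 201 and 133 gene counts per hepatocyte-sized cell in control areas 1 to 3 and 190, 234 and 258 in HIRA KO areas 1 to 3, and control areas 1 and 3 were the shallowest. Levels are therefore given as counts per 1000 counts of the 997 targets other than these 3 genes. All 3 genes stood well above the negative probes, which match no mouse transcript and averaged 0.413 to 0.535 counts per 1000 per probe. Their mean counts per area were 4.92 (Arg1), 5.32 (Glul) and 4.17 (Glud1) times that of the highest negative probe.

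To ask whether loss of HIRA changed the nitrogen-handling enzymes of hepatocytes, levels were first compared per tissue area. Arg1 was measured at 3.14, 2.63 and 3.31 counts per 1000 in control areas 1 to 3 and at 3.29, 4.22 and 2.25 in HIRA KO areas 1 to 3. The highest and the lowest area were both HIRA KO, and the groups overlapped. The fitted log2 fold change of HIRA KO over control was 0.22 ± 0.22 (SE, n = 3 areas per group; edgeR quasi-likelihood test, adjusted p = 0.830). Without HIRA KO area 2, the area with the most Arg1, it was -0.01.

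Glul was measured at 2.59, 4.10 and 5.24 counts per 1000 in control areas 1 to 3 and at 1.68, 1.98 and 5.20 in HIRA KO areas 1 to 3. HIRA KO areas 1 and 2 lay below every control area, whereas HIRA KO area 3 lay level with the highest control. The log2 fold change was -0.28 ± 0.38 (SE; edgeR adjusted p = 0.882), and it moved to -1.04 without HIRA KO area 3 and to 0.03 without HIRA KO area 1.

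Glud1 was measured at 1.88, 2.82 and 2.88 counts per 1000 in control areas 1 to 3 and at 2.60, 2.75 and 2.90 in HIRA KO areas 1 to 3. Control area 1 stood apart as the lowest, and the other 5 areas lay within 2.60 to 2.90. The log2 fold change was 0.25 ± 0.20 (SE; edgeR adjusted p = 0.741) and fell to 0.07 without control area 1.

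None of the 3 genes was called between genotypes, against 0.1% of the 998 targets tested. None reached an unadjusted p under 0.05 in edgeR (p = 0.338 for Arg1, 0.471 for Glul and 0.222 for Glud1), and DESeq2 called 0 of the 3. The approximate 95% intervals of the log2 fold changes ran from -0.21 to 0.64 for Arg1, from -1.02 to 0.46 for Glul and from -0.13 to 0.64 for Glud1, and that of Glul was the widest. The 1 target called was Igha, the heavy chain of immunoglobulin A, which was higher in HIRA KO (log2 fold change 1.13, edgeR adjusted p = 0.00107) and is named after its value was seen. Igha stood at 0.431, 0.448 and 0.404 counts per 1000 in control areas 1 to 3, near the mean negative probe. In HIRA KO areas 1 to 3 it stood at 0.904, 1.06 and 0.626. With slide row as a block, the fit called 44 targets, none of them these 3 genes (edgeR adjusted p = 0.6249 for Arg1, 0.116 for Glul and 0.384 for Glud1).

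**Figure D1:**
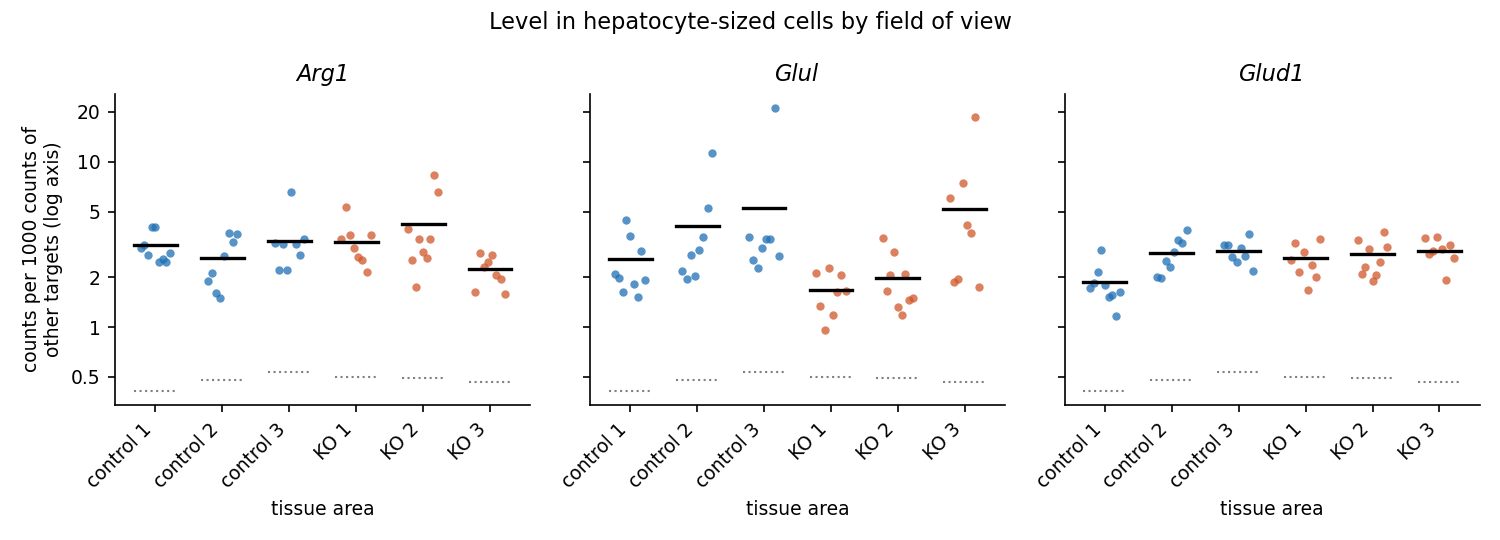
Level of Arg1, Glul and Glud1 in hepatocyte-sized cells, in counts per 1000 counts of the other targets on a log axis. Each point is 1 field of view, blue for control and orange for HIRA KO (KO); the black line is the level of the whole tissue area and the dotted grey line the mean negative probe. Glul spread most between fields of view, from 0.963 to 21.2.

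Within a genotype, the genes differed in how unevenly they were laid out. Over the 50 fields of view, Glul ran from 1.51 to 21.2 counts per 1000 in controls (median 2.74) and from 0.963 to 18.6 in HIRA KO (median 1.961), a spread of 14.04-fold and 19.4-fold. Arg1 ran from 1.498 to 6.59 in controls (median 2.82) and from 1.59 to 8.27 in HIRA KO (median 2.71). Glud1 was the most even, with 1.17 to 3.84 in controls (median 2.49) and 1.69 to 3.76 in HIRA KO (median 2.76). Between single cells Glul was again the most uneven. The 10% of cells with the most Glul held 60.1% to 80.8% of all Glul counts of their area, against 41.4% to 54.3% for Arg1 and 37.6% to 56.0% for Glud1. Arg1 and Glud1 had no fixed order, with Glud1 the higher in control area 1 and HIRA KO area 1.

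The targets most alike to each gene over the 50 fields of view were taken after removing the mean of each area (Pearson r of log2 counts scaled to the same total). Arg1 went with Ttr, the thyroid hormone carrier transthyretin (r = 0.849), with the antioxidant enzyme Gpx1 (0.801) and with the ATP synthase subunit Atp5b (0.775). Glud1 went with the apolipoproteins Apoc1 (0.813) and Apoa1 (0.744) and with superoxide dismutase 1 (Sod1, 0.804). Glul had no partner as close, the nearest being Atp5e (0.589), Sod1 (0.564) and lactate dehydrogenase A (Ldha, 0.541). Among the 3 genes, r was 0.557 for Arg1 and Glud1, 0.476 for Glul and Glud1 and 0.106 for Arg1 and Glul. These correlations share slide, library and depth and are a description.

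To resolve the Glul-expressing zone, a cell was called Glul-high when Glul made up at least 2% of its gene counts and at least 3 counts. This chose 495 of the 20842 cells (2.38%), which held 46.6% of all Glul counts. Controls held 53, 137 and 101 Glul-high cells in areas 1 to 3, or 1.31%, 3.72% and 3.25% of their hepatocyte-sized cells. HIRA KO areas 1 to 3 held 14, 32 and 158, or 0.452%, 0.841% and 5.08%. HIRA KO thus had both the lowest shares and the highest share, and the means of 2.76% ± 1.28 (SD, n = 3) and 2.12% ± 2.56 (SD, n = 3) overlapped (two-sided exact permutation test, p = 0.8, where the smallest possible p is 0.1). With every cell thinned to 100 counts, which left out 21.9% of control cells and 3.87% of HIRA KO cells as too shallow, the shares were 1.23%, 3.59% and 2.95% in controls and 0.453%, 0.808% and 4.23% in HIRA KO. Fields of view without a Glul-high cell numbered 0 of 9, 1 of 8 and 0 of 8 in control areas 1 to 3 and 4 of 8, 2 of 9 and 1 of 8 in HIRA KO areas 1 to 3.

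Glul-high cells were packed together. Among the 5 nearest hepatocyte-sized cells of a Glul-high cell, 30.6%, 58.2% and 37.4% were Glul-high in control areas 1 to 3 and 5.71%, 32.5% and 58.2% in HIRA KO areas 1 to 3. These shares are to be read against the 0.452% to 5.08% of all cells that were Glul-high, which every area exceeded. Genotypes did not differ beyond the spread between areas (42.1% ± 14.4 against 32.1% ± 26.3, SD of 3 areas; exact permutation p = 0.6). HIRA KO area 1, with 14 Glul-high cells, set the low end, and without it the difference turned from -9.93 to 3.28 percentage points.

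**Figure D2:**
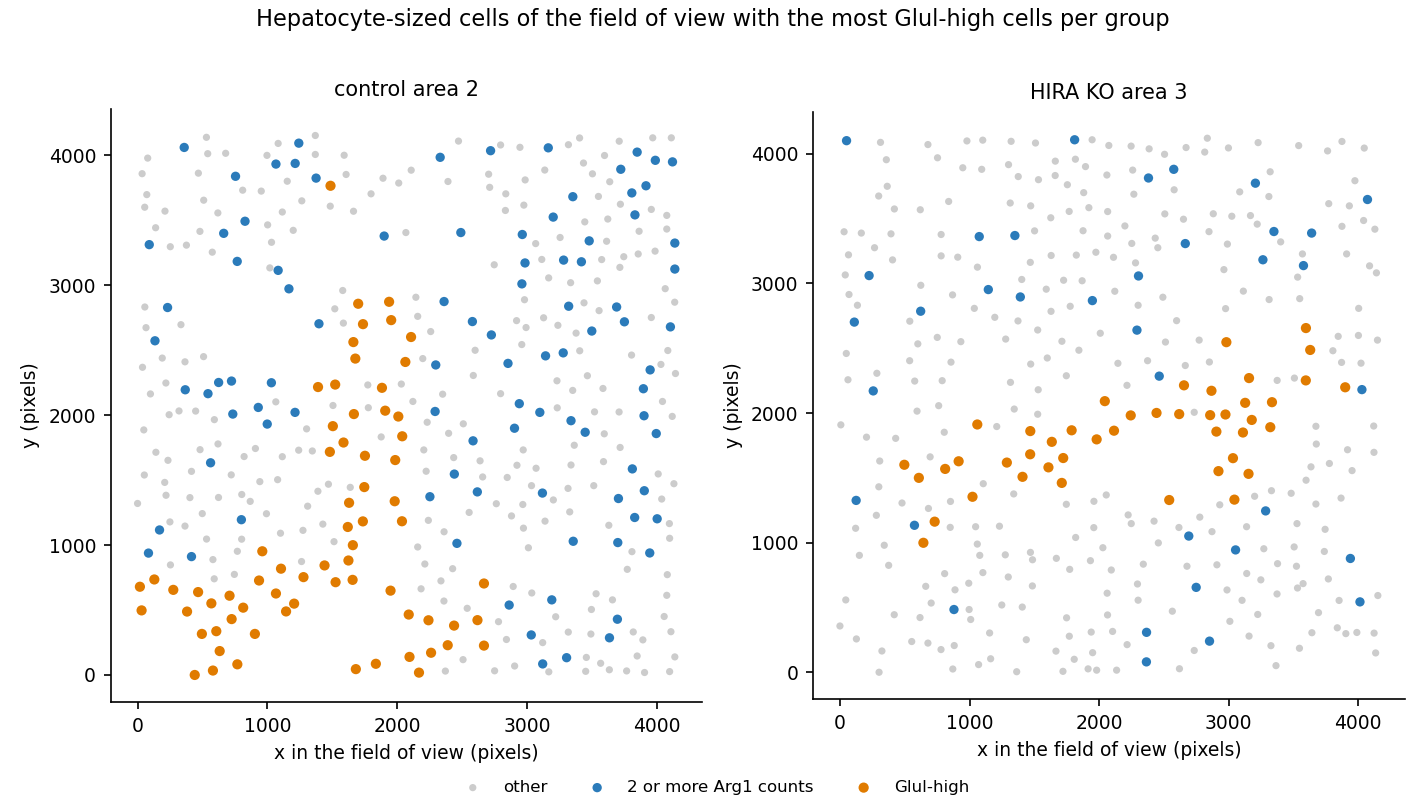
Positions, in pixels, of the hepatocyte-sized cells in the field of view with the most Glul-high cells of each group, with Glul-high cells in orange, other cells with 2 or more Arg1 counts in blue and the rest in grey. Most of the 69 Glul-high cells of the control field and the 44 of the HIRA KO field lie in groups, with some isolated cells, and 3 and 1 of them, respectively, held 2 or more Arg1 counts.

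In Glul-high cells Arg1 was lower. In control areas 1 to 3 it stood at 1.07, 0.812 and 0.810 counts per 1000 in Glul-high cells, against 3.18, 2.70 and 3.42 in the other hepatocyte-sized cells. In HIRA KO areas 1 to 3 it stood at 0.799, 0.659 and 0.567 in Glul-high cells, against 3.30, 4.25 and 2.35 in the others. All 6 areas were lower, with no overlap between the 2 sets of values. The values in Glul-high cells came close to the negative probes and rest on 12, 24, 15, 3, 6 and 28 Arg1 counts in the order given.

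The within-area log2 ratio of Arg1 averaged -1.95 ± 0.36 (SD, n = 6 areas), which is 3.85-fold lower (exact sign-flip permutation test, two-sided, p = 0.03125, the smallest that 6 areas allow, and 0.03125 after adjustment over 4 such tests). In a fit across 997 targets with the area as a block, which left Glul out because it had chosen the cells, Arg1 fell by 1.92 on the log2 scale (SE 0.16; edgeR adjusted p = 7.42e-10) and had the lowest p of all targets. Both Arg1 and Glud1 were called in that fit, where 2.31% of targets were called (1.6% higher and 0.702% lower), and a decrease in all 6 areas was seen for 3.31% of targets. Within single fields of view holding at least 5 Glul-high cells, Arg1 was lower in Glul-high cells in 23 of 23, with log2 ratios from -3.53 to -0.42 (median -2.05). The looser limit of 1% of gene counts for Glul-high cells gave a ratio of -1.15.

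Glud1 went the other way. It stood at 3.38, 3.75 and 5.29 counts per 1000 in Glul-high cells of control areas 1 to 3, against 1.85, 2.79 and 2.77 in the other cells. In HIRA KO areas 1 to 3 it stood at 3.46, 4.83 and 3.89, against 2.60, 2.73 and 2.84. All 6 areas were higher and the sets did not overlap. The log2 ratio averaged 0.67 ± 0.24 (SD, n = 6), or 1.59-fold (exact sign-flip p = 0.03125), and the edgeR fit gave 0.71 ± 0.13 (SE, adjusted p = 6.69e-04). An increase in all 6 areas was seen for 3.31% of targets. Thinning all cells to 100 counts lowered the ratio to 0.43, and within single fields of view 16 of 23 were higher (log2 ratios from -2.52 to 1.67, median 0.31).

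**Figure D3:**
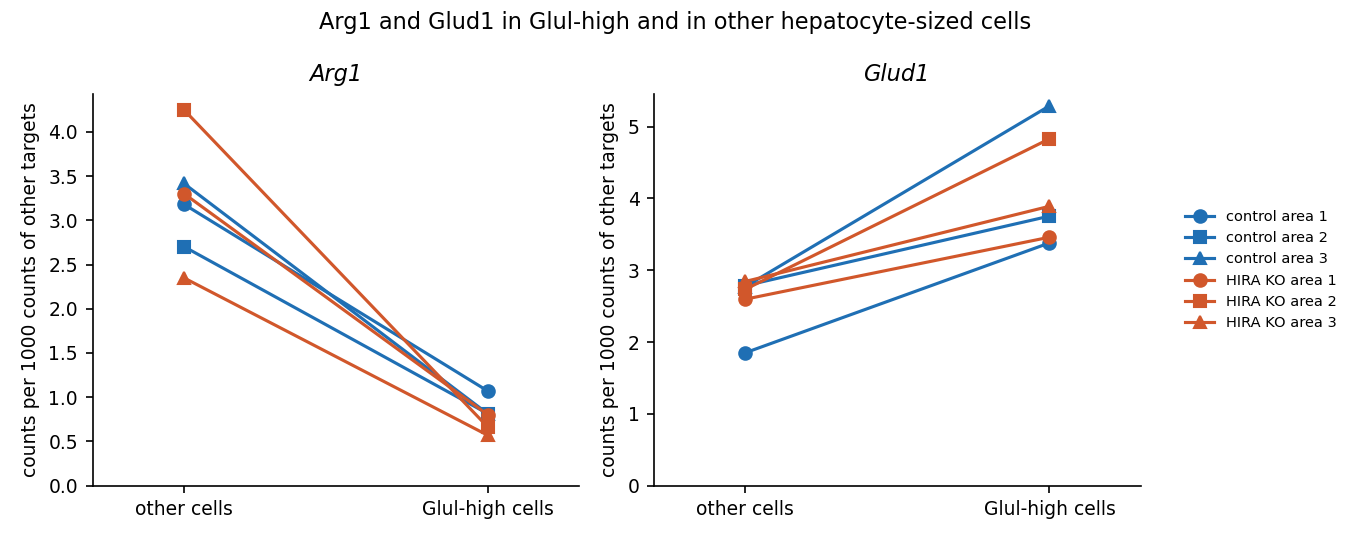
Arg1 (left) and Glud1 (right) in the other hepatocyte-sized cells and in Glul-high cells, in counts per 1000 counts of the other targets. Each line joins both values of 1 tissue area, blue for control and orange for HIRA KO; every Arg1 line falls and every Glud1 line rises.

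Neither contrast differed between genotypes beyond the spread between areas. The Arg1 log2 ratio averaged -1.75 ± 0.26 in controls against -2.14 ± 0.39 in the knockout (SD of 3 areas; exact permutation p = 0.3), and the Glud1 ratio 0.75 ± 0.28 and 0.59 ± 0.22 (exact permutation p = 0.4). As an interaction in the edgeR fit, the difference was -0.49 for Arg1 (approximate 95% interval -1.17 to 0.19) and -0.26 for Glud1 (-0.73 to 0.20), neither called (adjusted p = 0.845 and 0.873).

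The relation was also read from the side of Arg1. By the limits used for Glul (2% of gene counts and 3 counts), 191 cells were Arg1-high, and 0 of them were Glul-high. Only 2.38% of all hepatocyte-sized cells were Glul-high, so few shared cells would be expected with no relation. The 0 alone therefore does not show exclusion. Glul was lower in Arg1-high cells than in the rest in 6 of 6 areas, with log2 ratios from -2.44 to -0.33. The lowest ratio was that of HIRA KO area 3 and rests on its 4 Arg1-high cells. At least 3 counts were held by 1226 cells for Arg1 and by 925 for Glul, and by 36 for both, where 55.1 would be expected with the genes independent within each field of view. Of the 77 cells that were Glud1-high by the same limits, 5 were Glul-high, a number that was not set against an expected one. The product of Arg1 and Glul counts, summed over cells and divided by the sum expected if each gene took a constant share of counts within its field of view, was 0.635, 0.561 and 0.559 in control areas 1 to 3 and 0.821, 0.793 and 0.510 in HIRA KO areas 1 to 3. A value of 1 means no relation, and all 6 areas lay below it. The 2 highest values were those of HIRA KO areas 1 and 2, which held the fewest Glul-high cells, and the genotypes did not differ beyond the spread between areas (exact permutation p = 0.4). For Arg1 and Glud1 the same quotient was 0.951 to 1.08. For Glul and Glud1 it was 0.983 to 1.35 in 5 areas and 2.87 in control area 3. Counted instead as cells with at least 1 count of both genes over the number expected in the same way, the quotient was below 1 for every pair in all 6 areas, at 0.469 to 0.713 for Arg1 and Glul, 0.591 to 0.777 for Glul and Glud1 and 0.819 to 0.912 for Arg1 and Glud1. That expectation spreads each gene over cells in proportion to their other counts. A gene packed into few cells, as Glul was, therefore tends to fall below 1 with any partner. By that count, whether low co-detection was particular to Arg1 and Glul cannot be told.

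Other features of Glul-high cells moved with these values. Glul-high cells were deeper than other cells in 6 of 6 areas (median 149 to 310.5 gene counts against 130 to 255). These totals include the Glul counts that chose the cells, so part of the gap in depth follows from the choice. Of the 5 Kupffer cell markers on the panel, 4 fell (C1qa, C1qb, C1qc and Cd5l, log2 fold changes -0.71, -0.69, -0.99 and -0.82), and the summed Kupffer level was lower in 6 of 6 areas, at 4.46 to 9.24 counts per 1000 against 6.94 to 15.4. The part of either in the Arg1 and Glud1 values was not tested. Of the hepatocyte markers, 2 of 8 rose (Apoe by 0.73 and Apoc1 by 0.79 on the log2 scale) and 0 fell. Their summed level was higher in 4 areas and lower in 2. The summed cholangiocyte level was lower in 6 of 6 areas with 0 of 8 markers called. The summed stellate and endothelial levels were each lower in 5 areas and higher in 1, with 0 markers called.

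Among targets named after their values were seen, Sod1 had the lowest p after Arg1 (log2 fold change 1.12, adjusted p = 9.86e-06). It stood at 6.04 to 10.4 counts per 1000 in Glul-high cells against 3.27 to 4.81 in the others. Gstp1/2, glutathione transferases of pi class, followed with 0.93 (adjusted p = 3.22e-05) and Fabp4, a fatty acid carrier, with 0.91 (adjusted p = 1.09e-04). Ldha, which interconverts pyruvate and lactate, rose by 0.72, the glycolytic enzyme Tpi1 by 0.53 and Ahr, the receptor for dioxin-like ligands, by 0.58 on the log2 scale. Fabp4 and Ahr did not rise in every area. Fabp4 was lower in Glul-high cells of HIRA KO area 2 (0.659 counts per 1000 against 0.709, on 6 counts). Ahr was lower in those of HIRA KO area 1 (0.799 against 0.871, on 3 counts).

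The panel held few other genes of nitrogen handling or of zonation. Of 35 genes of nitrogen and amino acid metabolism only Ddc, which decarboxylates aromatic amino acids, was a target. It was called in none of the comparisons (log2 change 0.19 in Glul-high cells, edgeR adjusted p = 0.823). Of 25 pericentral and Wnt genes, 6 were targets, and 0 passed in either direction in Glul-high cells (median log2 change 0.12, against -0.01 over all targets). Lgr5, a Wnt-responsive receptor of cells around the central vein, had the lowest p of them (log2 change 0.47, edgeR unadjusted p = 0.0322, adjusted p = 0.412). Lgr5 stood at 0 to 0.769 counts per 1000 in Glul-high cells against 0.388 to 0.544 in the others, near the level of the negative probes. It was lower in Glul-high cells of control area 1 (0.445 against 0.472) and of HIRA KO area 1 (0 against 0.443). Of 16 periportal genes, 6 were targets and 0 passed (median -0.06), and of 12 regulators of urea cycle and glutamine genes, 7 were targets and 0 passed (median 0.11). Between genotypes, 0 of these listed targets passed in either direction, the lowest p being that of the interleukin 6 signal transducer Il6st (log2 fold change 0.21, unadjusted p = 0.0561, edgeR adjusted p = 0.582).

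To find out how far the zones reach, cells that were not Glul-high were ordered by their distance to the nearest anchor, a Glul-high cell with another among its 5 nearest. There were 36, 123 and 73 anchors in control areas 1 to 3 and 3, 22 and 152 in HIRA KO areas 1 to 3. Distances are in pixels, since the size of a pixel is not given in the sources used here. Arg1 was lowest beside the anchors and climbed over the first 4 steps of distance in 6 of 6 areas. Up to 250 pixels it stood at 1.18 to 1.83 counts per 1000, from 250 to 500 pixels at 1.57 to 3.17, from 500 to 1000 pixels at 2.20 to 4.22 and from 1000 to 2000 pixels at 2.71 to 4.49. Beyond 2000 pixels it was lower again in 5 of 6 areas, at 2.22 to 4.32. Only imaged cells could serve as anchors, so distances to Glul-high cells outside the imaged fields are unknown.

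Arg1 in control area 3 ran through 1.18, 1.57, 2.78, 3.98 and 3.72 counts per 1000 from the nearest to the farthest step. HIRA KO area 3, which had the most anchors, showed 1.65, 2.12, 2.20, 2.71 and 2.22. Glul itself, which had chosen the anchors and is given as a description, went from 4.91 to 9.24 counts per 1000 within 250 pixels to 1.25 to 3.43 in the next step and to 1.28 to 2.20 at 500 to 1000 pixels. Glud1 went from 2.10 to 4.93 within 250 pixels to 1.75 to 2.69 beyond 2000 pixels. It fell from the second to the third step in 6 of 6 areas and rose over the first step in 2. HIRA KO area 1 had only 5 cells within 250 pixels and 16 from 250 to 500. It set the highest Glul and Glud1 values of the first step (9.24 and 4.93), and without it they reached 7.76 and 4.50, whereas it set neither end of the Arg1 ranges of the first 2 steps.

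**Figure D4:**
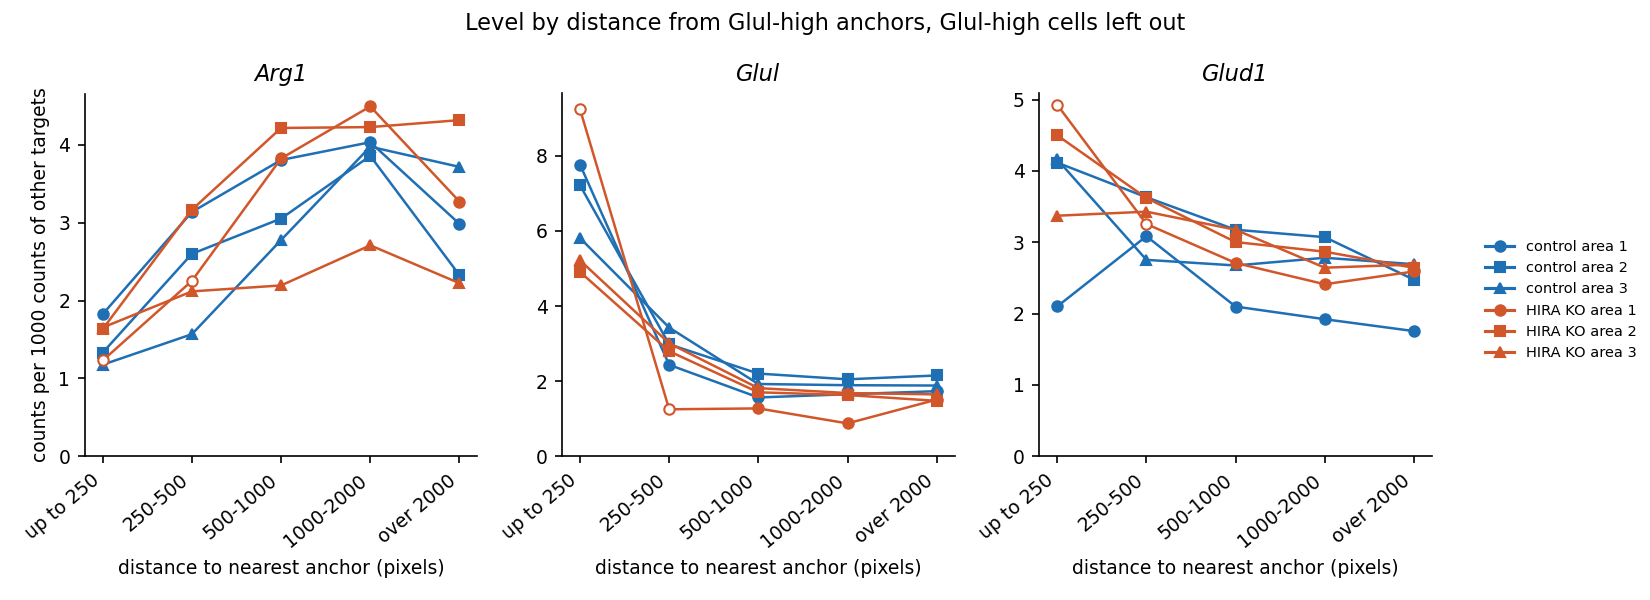
Level of each gene, in counts per 1000 counts of the other targets, by distance in pixels to the nearest Glul-high anchor, with Glul-high cells left out. Each line is 1 tissue area (blue control, orange HIRA KO) and open symbols mark steps with fewer than 20 cells; Arg1 climbs over the first 4 steps in all 6 areas while Glul falls over the first step in all 6 and Glud1 in 4 of 6.

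Cells farther than 1000 pixels from an anchor were compared with those within 500 pixels. The log2 ratio of Arg1, far over near, was 0.25, 0.38 and 1.396 in control areas 1 to 3 and 0.69, 0.61 and 0.32 in HIRA KO areas 1 to 3, with a mean of 0.61 ± 0.42 (SD, n = 6; exact sign-flip p = 0.03125). That of Glud1 was -0.62, -0.55 and -0.21 in controls and -0.57, -0.52 and -0.36 in HIRA KO, with a mean of -0.47 ± 0.15 (exact sign-flip p = 0.03125). Every area had the same sign for each gene, as did 3.41% of targets that were higher far away and 2.51% that were lower in all 6 areas. In the edgeR fit across targets, Arg1 rose with distance by 0.55 ± 0.11 and Glud1 fell by 0.48 on the log2 scale (SE 0.10; adjusted p = 9.01e-04 for both), where 1.8% of targets were called (0.401% higher and 1.4% lower). Without HIRA KO area 1, with its 3 anchors and 21 near cells, they were 0.54 and -0.47 (adjusted p = 5.94e-04 and 3.31e-04). Near limits of 300 and far limits of 1500 pixels raised the Arg1 ratio to 0.94. Fields of view with both near and far cells numbered 3, 4 and 8 in control areas 1 to 3 and 1, 3 and 7 in HIRA KO areas 1 to 3. Elsewhere, distance and field of view cannot be told apart. With near and far cells compared only within the same field of view, the ratio was 0.85 for Arg1 and -0.32 for Glud1.

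Controls and HIRA KO did not differ in either ratio beyond the spread between areas (0.67 ± 0.63 against 0.54 ± 0.20 for Arg1 and -0.46 ± 0.22 against -0.48 ± 0.11 for Glud1, SD of 3 areas; exact permutation p = 0.9 for both). The edgeR interaction was -0.15 for Arg1 (approximate 95% interval -0.64 to 0.34) and 0.01 for Glud1 (-0.39 to 0.41). The 7 comparisons of genotypes over single values per area had adjusted exact p-values of 0.9.

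Depth fell with distance from the anchors, from a median of 263.5 counts per cell within 250 pixels to 186 beyond 2000 pixels (medians of the 6 areas). The summed Kupffer level was higher far from the anchors in 6 of 6 areas, with Cd5l and C1qa called. The immunoglobulin genes Jchain, Igkc, Igha and Ighm were called lower far away (log2 changes -1.09, -0.91, -1.24 and -0.67, named after their values were seen), but the summed B and plasma cell level was higher far away in 3 areas and lower in 3. Igkc stood at 6.66 counts per 1000 near and 1.10 far in control area 1 and at 4.08 and 1.23 in HIRA KO area 2, and at 0.712 and 2.43 in HIRA KO area 1. Igha stood at 11.7 near and 0.681 far in HIRA KO area 2, and at 0.356 and 0.917 in HIRA KO area 1. The part of these in the Arg1 and Glud1 values was not tested. Of the 8 cholangiocyte markers 1 rose with distance, Spp1, the osteopontin gene (log2 change 0.92, edgeR adjusted p = 8.14e-04), and their summed level was higher far away in 5 of 6 areas. The 6 periportal targets had a median of 0.07, and 0 passed. Apoa1 had the lowest p of them and was lower far away (log2 change -0.26, edgeR unadjusted p = 0.0143, adjusted p = 0.349). Sox9 came next and went the other way, at 0.31 (edgeR unadjusted p = 0.0249, adjusted p = 0.490).

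A second landmark was sought in small cells rich in bile duct markers (Epcam, Krt19, Krt7, Sox9 and Spp1 together at least 5 counts and 3% of the cell's gene counts), since bile ducts run in the portal tracts. There were 17, 11 and 36 in control areas 1 to 3 and 36, 53 and 20 in HIRA KO areas 1 to 3. In 5 areas 0% of Glul-high cells lay within 500 pixels of one, against 4.19% to 11.7% of other cells, whereas in HIRA KO area 2 it was 18.8% against 15.8%. Arg1 was not ordered by this landmark in a like way in all areas. Its log2 ratio of far over near was 0.14, -0.80 and -1.31 in control areas 1 to 3 and 0.00, 0.17 and -0.38 in HIRA KO areas 1 to 3. In control area 3 the difference was that between 6.82 counts per 1000 near bile duct cells and 2.75 far from them. Glud1 ranged from -0.43 to 0.28, with 3 areas in each direction.

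Each decoded molecule also carries the compartment of the cell in which it lay. In hepatocyte-sized cells, 26.5% to 40.1% of Glul transcripts were nuclear, below the share over all targets (39.5% to 51.2%) in 6 of 6 areas. The low share was that of the Glul-high cells. There 24.4%, 18.3% and 19.5% of Glul transcripts were nuclear in control areas 1 to 3 and 21.4%, 19.5% and 19.9% in HIRA KO areas 1 to 3. In the other cells the shares were 46.8%, 51.5%, 39.98%, 40.9%, 43.99% and 38.5% in the same order, close to those of all targets. The groups of cells did not overlap, whereas controls and HIRA KO did.

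Glud1 transcripts were likewise less often nuclear in Glul-high cells in 6 of 6 areas, at 11.4% to 34.2% against 39.6% to 46.4% in the other cells, on 13 to 192 transcripts per area. Arg1 was nuclear in 48.8%, 38.6% and 58.1% of transcripts in control areas 1 to 3 and in 43.4%, 40.1% and 37.3% in HIRA KO areas 1 to 3. Control area 3 stood apart, with an Arg1 share above that of 95.7% of targets while Glul and Glud1 there had 27.4% and 42.01%. In Glul-high cells, on 3 to 28 transcripts per area, the Arg1 share was 75%, 37.5% and 26.7% in control areas 1 to 3. In HIRA KO areas 1 to 3 it was 66.7%, 50% and 32.1%. In the other cells it was 48.7%, 38.6%, 58.4%, 43.4%, 40.1% and 37.4% in the same order, so areas went both ways. The share of all targets within Glul-high cells was not computed. These shares were compared after the data had been seen and are given as a description.

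**Figure D5:**
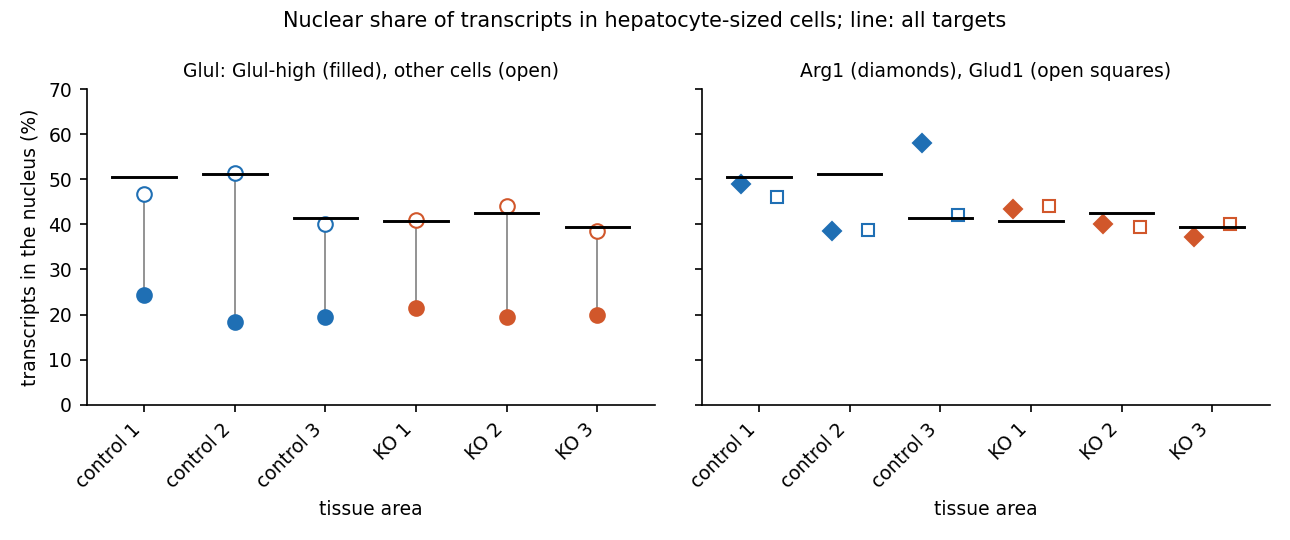
Share of transcripts, in percent, that lay in the nucleus of hepatocyte-sized cells in each tissue area (blue control, orange HIRA KO). On the left, filled circles are Glul in Glul-high cells (18.3% to 24.4%) and open circles Glul in the other cells; on the right, diamonds are Arg1 and open squares Glud1, with 58.1% for Arg1 in control area 3; black lines give all targets.

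The 3 genes were also read outside hepatocyte-sized cells. In smaller cells with at least 20 counts, Arg1 stood at 1.21 to 2.29 counts per 1000, Glul at 1.61 to 3.71 and Glud1 at 1.29 to 2.07 over the 6 areas, each below its level in the hepatocyte-sized cells of the same area. Transcripts outside any cell were not lower throughout. Glul there held 8.09 counts per 1000 in HIRA KO area 3 against 5.20 in hepatocyte-sized cells, and 1.56 to 4.49 in the other 5 areas. Arg1 held 3.89 against 2.63 in control area 2 and 4.24 against 4.22 in HIRA KO area 2. Glud1 held 3.68 against 2.82 in control area 2, 2.95 against 2.75 in HIRA KO area 2 and 3.01 against 2.90 in HIRA KO area 3.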

How the data were processed

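Per the study's methods, 5 µm sections were profiled with a 1000-plex mouse panel. The authors deposited raw transcript counts per cell and target (with 10 negative probes), cell areas and positions, and each transcript with its compartment. Segmentation and decoding software are not given in the sources used here. The cell outlines were not used here. Summed over cells, both tables held 18286 Arg1, 21445 Glul and 16411 Glud1 transcripts. Tissue areas are runs of consecutive fields of view of 1 genotype. By position on the slide, each of the 50 was closest to its own area's centre.

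Areas, the gene lists, the thresholds and these 3 genes were chosen with earlier results of these data known. Genes named are the 3 members, listed genes on the panel and the 3 most alike targets per member; others are marked as named after their values were seen. Negative probes entered neither library sizes nor tests.

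Counts were summed per area and tested with edgeR 4.0.16 in R 4.3.3 (quasi-likelihood test, TMM, filterByExpr, Benjamini-Hochberg at 0.05). 998 of 1000 targets, with all 3 genes, passed the filter. The fits with Glul-high cells and distance used the area as a block; these and the ratios within fields of view were added after seeing the data. SEs are the log2 change over the root of F, and 95% intervals are normal approximations. Single values per area were compared by exact permutation (3 against 3) or exact sign flips (6 areas) in scipy 1.17.1, with 0.5 added to each sum. Alternatives used DESeq2 1.42.0, limma 3.58.1, other limits for cells and each area left out. The code was tested on simulated data.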

Additional observations from a re-analysis of the deposited data

Results flagged for a closer look

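Within each tissue area, 8 or 9 fields of view were examined for 1 that stood apart from the others (Dixon's criterion), for the level of each gene and for the percent of Glul-high cells. Of 24 such groups, 6 had one, where chance flags about 1 in 20.

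Control area 3 held the widest gap, with Glul at 21.2 counts per 1000 in field of view 41 against 3.51 in the next. That field also had the highest percent of Glul-high cells of its area, 10%, against 3.81% in the next. The cell with the most Glul of all, 107 counts, was in this area. Glul of HIRA KO area 3 reached 18.6 in field of view 49 against 7.48 in the next, and that of control area 2 reached 11.3 in field of view 25 against 5.24 in the next. Arg1 stood apart in control area 3 (6.59 in field of view 39, next 3.39) and in HIRA KO area 1 (5.30 in field of view 11, next 3.61). All 6 were high rather than low, and none was a value of Glud1.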

How the results depend on the processing

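The genotype fits were repeated with 8 other settings of scaling, test and cell limits, without Glul-high cells (added after seeing the data) and with each area left out. None of the 3 genes was called in any of them. Leaving out 1 area moved the log2 fold change of Arg1 from -0.01 to 0.39 (reversed to -0.0139 on omitting HIRA KO area 2), that of Glul from -1.04 to 0.03 (reversed to 0.0287 on omitting HIRA KO area 1) and that of Glud1 from 0.07 to 0.38. The number of targets called, 1, became 15 with DESeq2, 44 with slide row as a block, 29 with limma-voom on fields of view with the area as a random block and 2 with cells of at least 10000 square pixels, and 0 to 4 with 1 area left out. The cause was not tested. Scaling by library size alone moved the median of all targets to -0.13 and called 1.

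The sign of the Arg1 and Glud1 ratios in Glul-high cells and by distance held under every alternative. With 5 areas the smallest possible p is 0.0625, so leaving out 1 area lost the call by construction. The ratios then ran from -2.03 to -1.82 (Arg1, Glul-high), 0.62 to 0.72 (Glud1, Glul-high), 0.45 to 0.68 (Arg1, far over near) and -0.52 to -0.44 (Glud1, far over near). With Glul-high cells defined from 4% of gene counts, HIRA KO area 1 had 1 such cell and no anchor. The ratios were then 0.67 for Glud1 in Glul-high cells (exact p = 0.125, that area being negative), and 0.48 for Arg1 and -0.56 for Glud1 by distance (5 areas, exact p = 0.0625). The genotype difference in the share of Glul-high cells ran from -2.12 to 0.196 percentage points with 1 area left out (reversed to 0.196 when HIRA KO area 1 was omitted and to 0.00118 for HIRA KO area 2), and that in their Glul-high neighbours from -23.0 to 3.28 (reversed without HIRA KO area 1). The quotient of Arg1 and Glul products ran from 0.61 to 0.69 over all settings, and limits for Glul-high cells do not enter it. The fit with slide row as a block pairs the areas of each row, since every row holds 1 area of each group; it called none of the 3 genes (adjusted p = 0.6249, 0.116 and 0.384).

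The Glul-high values of HIRA KO area 1 rest on 14 cells and 3 Arg1 counts.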

Other observations

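The nuclear share of Arg1 transcripts also varied between fields of view of 1 tissue area. In HIRA KO area 2, fields of view 33 and 34, with the highest Arg1 levels of the area (8.27 and 6.57 counts per 1000), had 28.5% and 31.6% of Arg1 transcripts in the nucleus, and the other 7 had 41.03% to 56.5%. In control area 2, fields of view 23 and 25, the highest in Arg1 there (3.71 and 3.64), had 32.5% and 23.8%, and fields of view 20 and 21, the lowest (1.603 and 1.498), had 64.1% and 53.5%. In control area 3 all 8 fields of view lay between 48.6% and 68.9%, and the field with the most Arg1, field of view 39, was the lowest of them. The order was less clear in HIRA KO area 3. Its highest field in Arg1, field of view 44 (2.81), had 40.8%, and its lowest, field of view 50 (1.59), had 42.4%. Field of view 47 (2.71) had 31.4%. These values are a description, and depth and level were not separated.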
